A study of Mus musculus with 2 samples.

Results

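Genes of cholesterol and isoprenoid synthesis were examined in mouse primordial germ cells (PGCs), from which eggs and sperm later form. The 35 genes were chosen by name for their role in making, sensing or moving sterols or in attaching isoprenoids to proteins. Earlier results of these data were known at that choice, so the shares found or detected are descriptions only. All 35 were among the 18877 genes of the table, so that 0 were absent. They comprised 8 enzymes of the mevalonate route, 11 enzymes of squalene and sterol synthesis, 7 genes of sterol sensing and control, 4 genes of sterol transport, storage and export, and 5 genes of protein prenylation. Both libraries were from untreated PGCs of the mouse strain C57BL6 at embryonic day 9.5 (E9.5), isolated by an antibody to SSEA1, a carbohydrate antigen on their surface, and were numbered replicate 1 and replicate 2. The embryos were described as female, and whether embryos were pooled was not given in the sources used here. Both libraries formed 1 group, so no comparison between conditions could be made, and libraries of other stages were not analysed here.

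The mevalonate route condenses acetyl-CoA to HMG-CoA, reduces it to mevalonate and turns that into the isoprenoids farnesyl and geranylgeranyl diphosphate. Farnesyl diphosphate is either joined to squalene, from which lanosterol and then cholesterol are made, or, like geranylgeranyl diphosphate, attached to proteins such as Ras GTPases and G protein gamma subunits. Sterols feed back on the route: SCAP escorts SREBP transcription factors to the Golgi when sterols are low, and INSIG proteins hold the SCAP-SREBP complex in the endoplasmic reticulum when sterols are high. Isoprenoid synthesis is known for guiding germ cell migration in flies and fish, and mouse PGCs migrate at about this stage.

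Depth differed between the libraries. Levels are TPM (transcript abundance, for which reads are divided by gene length and then set to a common total per library), and the reads behind each value were recovered from the table as described under processing. Replicate 1 held 15912473 recovered reads and replicate 2 held 5458685, of which the 35 genes held 34008 and 11205. A member had 20 to 9899 reads in replicate 1 (median 412) and 5 to 3207 in replicate 2 (median 131), so values of low genes in replicate 2 were the least precise. All 12 PGC markers were at 1 TPM or more in both libraries, as were 60.01% of all genes. They ranged from Dppa3 at 5013 and 5075 TPM down to Pou5f1 at 1.54 and 1.46 TPM. Pou5f1 rested on 33 and 11 reads and lay below the median of all genes in both libraries. Erythroid markers were also abundant, with 5 of the 6 genes in the table at 1 TPM or more in both libraries and a summed level of 3983 and 3765 TPM. The share of the members' reads that came from erythroid or other cells was not tested, and in such bulk samples fewer cells of a type and less RNA per cell cannot be told apart.

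The median gene of the pathway was above the median of all genes in both libraries, but not every group was. The median of the 35 genes was 6.69 TPM in replicate 1 and 7.76 TPM in replicate 2, compared with 2.71 and 2.61 TPM over all genes and 3.88 and 3.64 TPM over the 12679 protein-coding genes. On the log2(TPM + 1) scale the members' median was 3.04 ± 0.133 (SD, n = 2) and that of all genes 1.87 ± 0.0282. At 1 TPM or more in both libraries were 31 of 35 members (88.6%), as were 60.01% of all genes and 69.5% of protein-coding genes. The other 4 were Mvk, Abca1 and Nr1h2, which were below 1 TPM in replicate 2, and Mylip, which was below it in replicate 1. Above the 75th percentile of all genes in both libraries were 14 members (40%), as were 23.2% of all genes. Above the median of all genes in both libraries were 25 members, as were 8535 of all 18877 genes. Below the 50th percentile in both were 7 members, as were 8537 of all genes. The group of sterol sensing and control had a median of 1.87 and 2.22 TPM, below that of all genes. Together the 35 genes held 932 and 864 TPM, which was 0.0933% and 0.0865% of the deposited total.

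**Figure D1:**
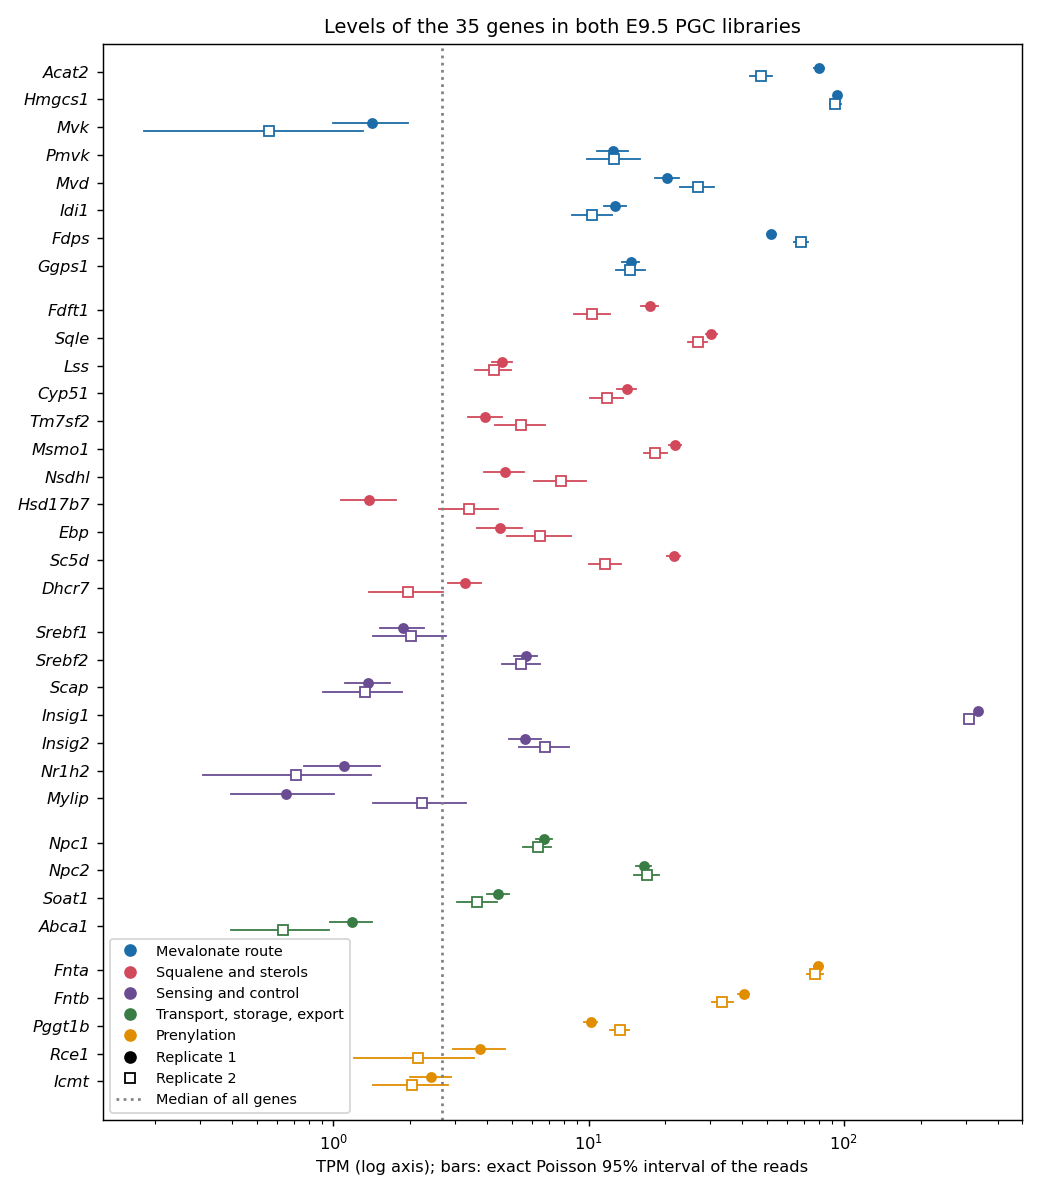
TPM (log axis) of each of the 35 genes in replicate 1 (filled circles) and replicate 2 (open squares), coloured by role. Bars are exact Poisson 95% intervals of the recovered reads, which cover counting error only, and the dotted line is the mean of both libraries' medians over all genes (2.66 TPM). Insig1 stands alone at 337 and 310 TPM, most mevalonate enzymes lie above 10 TPM, and genes with few reads, such as Mvk and Nr1h2 in replicate 2, have wide bars.

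The expression of these genes was concentrated in a few of them. Insig1 alone held 36.1% of the members' summed TPM in replicate 1 and 35.9% in replicate 2. With Hmgcs1, Fnta, Acat2 and Fdps it held 68.8% in each library. Ordered by mean TPM, the 35 genes spanned 357-fold, from Insig1 to Nr1h2. The libraries of neighbouring genes in that order did not overlap for 7 of 34 pairs, namely Insig1 over Hmgcs1, Hmgcs1 over Fnta, Fdps over Fntb, Fntb over Sqle, Msmo1 over Npc2, Idi1 over Npc1 and Icmt over Srebf1. The other 27 neighbours did not differ beyond the spread between libraries. Counting intervals were apart in both libraries for 5 of the 7 pairs, and those of Icmt and Srebf1 overlapped in both. Per base of the longest coding transcript in place of all exonic bases, 3 of the 7 pairs stayed apart (Insig1 over Hmgcs1, Fdps over Fntb and Msmo1 over Npc2), and 3 reversed by mean (Fntb and Sqle, Idi1 and Npc1, Icmt and Srebf1).

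Promoter sequence is shown for 3 genes at or near the ends of this range by mean deposited TPM, the highest gene (Insig1), the highest enzyme of the routes (Hmgcs1) and the lowest enzyme (Mvk). The sequences are RefSeq on GRCm38.p6, plus strand, read 5′ to 3′ toward the start of the gene, and leave out any base that lies in an annotated exon. Capitals mark matches to 4 motifs searched on both strands: a sterol element (TCACNCCAC), an E-box (CACGTG), an NF-Y box (CCAAT) and an Sp1 box (GGGCGG). The Insig1 sequence is chr5:28071162-28071362, the Hmgcs1 sequence chr13:119690101-119690350 and the Mvk sequence chr5:114444061-114444268.
Insig1: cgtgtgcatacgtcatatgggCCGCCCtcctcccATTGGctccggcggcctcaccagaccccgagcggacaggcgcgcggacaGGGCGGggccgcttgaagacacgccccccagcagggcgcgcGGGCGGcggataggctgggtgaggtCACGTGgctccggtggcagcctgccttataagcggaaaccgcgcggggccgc
Hmgcs1: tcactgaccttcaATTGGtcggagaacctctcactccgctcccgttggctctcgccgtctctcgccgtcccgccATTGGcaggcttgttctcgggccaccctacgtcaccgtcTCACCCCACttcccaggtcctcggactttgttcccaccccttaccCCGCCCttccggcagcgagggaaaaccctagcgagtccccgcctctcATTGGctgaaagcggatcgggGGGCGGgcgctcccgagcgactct
Mvk: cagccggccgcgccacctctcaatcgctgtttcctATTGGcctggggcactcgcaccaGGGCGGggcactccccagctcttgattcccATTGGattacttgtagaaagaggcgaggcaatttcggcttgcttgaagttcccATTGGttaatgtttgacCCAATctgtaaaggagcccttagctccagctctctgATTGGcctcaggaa
In the Insig1 sequence the E-box began 101 bases before the RefSeq start, an NF-Y box lay on the minus strand at 216 bases, and Sp1 boxes lay at 229, 167 and 126 bases. The Hmgcs1 sequence held the sterol element at 137 bases, NF-Y boxes on the minus strand at 237, 176 and 45 bases and Sp1 boxes at 92 and 24 bases. The Mvk sequence held 5 NF-Y boxes and 1 Sp1 box, but no match to the sterol element or E-box patterns. NF-Y and Sp1 boxes were thus in all 3 sequences, and the sterol element was in that of Hmgcs1.

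Enzymes of the mevalonate route were the highest group of the pathway, with a median of 17.5 TPM in replicate 1 and 20.6 TPM in replicate 2. Of the 8 enzymes, 6 lay above the 75th percentile of all genes in both libraries. Hmgcs1, the cytosolic HMG-CoA synthase (chromosome 13, 119690379 to 119708260), was highest at 94.0 and 92.7 TPM (mean 93.3 ± 0.970, SD, n = 2), with 4106 and 1423 reads. Its counting intervals, 91.2 to 96.9 and 87.9 to 97.6 TPM, overlapped. Acat2, the cytosolic acetoacetyl-CoA thiolase that supplies HMG-CoA synthase (chromosome 17, 12942890 to 12960747), was at 79.7 and 47.3 TPM. Replicate 2 was lower by 0.741 on the log2(TPM + 1) scale, and the intervals of Acat2 did not overlap. Farnesyl diphosphate synthase, Fdps (chromosome 3, 89093588 to 89101959), was at 52.0 and 68.0 TPM and was higher in replicate 2, with intervals that did not overlap. Its partner Ggps1, which lengthens farnesyl to geranylgeranyl diphosphate, was at 14.6 TPM in both libraries, so that Fdps exceeded it 3.56-fold and 4.66-fold, or 9.75-fold and 12.8-fold per base of the longest coding transcript.

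The steps between mevalonate and farnesyl diphosphate were at lower levels. Mvd, the decarboxylase that yields isopentenyl diphosphate, was at 20.3 and 26.7 TPM. Phosphomevalonate kinase, Pmvk, was at 12.4 and 12.6 TPM and the isomerase Idi1 at 12.7 and 10.3 TPM. These enzymes lay within a narrow range, and only Mvd had intervals that did not overlap between the libraries. Mevalonate kinase, Mvk (chromosome 5, 114444269 to 114460591), which adds the first phosphate to mevalonate, was the exception at 1.42 and 0.559 TPM. It rested on 36 and 5 reads, with intervals of 0.992 to 1.96 and 0.182 to 1.30 TPM. Even so, its interval lay below those of Pmvk and Mvd in each library, and Pmvk exceeded it 8.76-fold in replicate 1 and 22.5-fold in replicate 2. Hmgcs1 exceeded Mvk 66.4-fold and 166-fold.

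Enzymes of squalene and sterol synthesis were all at 1 TPM or more in both libraries, but at levels that differed along the route. Their median was 4.68 TPM in replicate 1 and 7.76 TPM in replicate 2, and 4 of 11 lay above the 75th percentile of all genes in both libraries. Sqle, squalene epoxidase, was highest at 30.3 and 26.7 TPM, followed by the methylsterol oxidase Msmo1 at 21.8 and 18.3 TPM. Lss, which closes squalene epoxide to lanosterol right after Sqle, was at 4.59 and 4.24 TPM. Sqle thus exceeded Lss by about the same factor in both libraries, 6.59-fold and 6.29-fold. Squalene synthase, Fdft1, the first enzyme committed to sterols, was at 17.3 and 10.3 TPM. The lanosterol demethylase Cyp51 was at 14.1 and 11.8 TPM, and the sterol reductase Tm7sf2, which acts next, at 3.93 and 5.45 TPM. Per base of the longest coding transcript, Cyp51 was at 15.8 and 13.2 and Tm7sf2 at 11.6 and 16.0. On that basis their order was not the same in both libraries.

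The demethylation of lanosterol needs Msmo1, Nsdhl and Hsd17b7 in turn, and their levels were unequal. Nsdhl, on the X chromosome (72918557 to 72958514), was at 4.68 and 7.76 TPM. Hsd17b7, the ketoreductase, was at 1.38 and 3.40 TPM, with 67 and 58 reads. Msmo1 exceeded Nsdhl 4.65-fold and 2.35-fold and Hsd17b7 15.8-fold and 5.37-fold, so the order was the same in both libraries and the sizes were not. Per base of the longest coding transcript these ratios were 10.6 and 5.37 for Nsdhl and 42.8 and 14.6 for Hsd17b7. Ebp, the sterol isomerase, also X-linked (8185329 to 8193512), was at 4.51 and 6.47 TPM. The last steps are catalysed by the desaturase Sc5d at 21.5 and 11.6 TPM and the reductase Dhcr7, mutated in Smith-Lemli-Opitz syndrome, at 3.27 and 1.95 TPM. Sc5d and Dhcr7 were both lower in replicate 2, each with intervals that did not overlap, and the ratio between them was 6.57 and 5.95, or 3.23 and 2.92 per base of the longest coding transcript.

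Among the genes of sterol sensing and control, Insig1 stood far from the rest. The group median was 1.87 TPM in replicate 1 and 2.22 TPM in replicate 2, and only Insig1 of the 7 lay above the 75th percentile of all genes in both libraries. Insig1 (chromosome 5, 28071363 to 28078662) was at 337 and 310 TPM (mean 323 ± 18.8, SD, n = 2), rank 509 and 533 of all genes, with 9899 and 3207 reads. Its intervals, 330 to 343 and 299 to 321 TPM, did not overlap, although the libraries differed by 0.118 on the log2(TPM + 1) scale. Its paralog Insig2, which serves the same retention of SCAP, was at 5.63 and 6.72 TPM. Insig1 exceeded Insig2 59.8-fold and 46.2-fold (mean 53.0 ± 9.61, SD, n = 2). It also exceeded the transcription factor gene Srebf2 59.4-fold and 56.9-fold, and the escort gene Scap 246-fold and 234-fold (160-fold and 152-fold per base of the longest coding transcript). Insig1 shared 0.762% of its 75-base words with another gene, Gm37784, which was listed at 0 in both libraries.

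The transcription factor genes and the other control genes were far below Insig1. Srebf2, whose product SREBP-2 drives mainly cholesterol genes, was at 5.67 and 5.45 TPM. Srebf1, whose product SREBP-1 drives mainly fatty acid genes, was at 1.87 and 2.02 TPM. Srebf2 exceeded Srebf1 3.04-fold and 2.70-fold, and the intervals of the pair did not overlap in either library. Scap was at 1.37 and 1.33 TPM. Nr1h2, which encodes the oxysterol receptor LXR beta, was at 1.10 and 0.713 TPM with 35 and 8 reads. Mylip, an LXR target that encodes a ubiquitin ligase, was at 0.651 and 2.22 TPM with 20 and 24 reads. For Mylip the deeper library was the lower, and its intervals, 0.398 to 1.01 and 1.42 to 3.30 TPM, did not overlap.

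Genes of sterol transport, storage and export had a median of 5.56 TPM in replicate 1 and 4.98 TPM in replicate 2. Npc2, the lysosomal sterol carrier, was highest at 16.4 and 16.9 TPM. Npc1, the membrane protein that takes cholesterol from NPC2, was at 6.69 and 6.30 TPM, and Npc2 exceeded it 2.46-fold and 2.69-fold. Soat1, which esterifies cholesterol for storage, was at 4.43 and 3.67 TPM. Abca1, the exporter of cholesterol to apolipoproteins, was the lowest of the 4 at 1.18 and 0.635 TPM, and its intervals did not overlap. Npc2, Npc1 and Soat1 each lay above Abca1 in both libraries.

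Genes of protein prenylation had a median of 10.2 TPM in replicate 1 and 13.2 TPM in replicate 2, but fell into separate levels by step. Fnta, the alpha subunit that farnesyltransferase and geranylgeranyl transferase I share, was at 79.3 and 77.0 TPM (mean 78.1 ± 1.64, SD, n = 2). Fntb, the beta subunit of farnesyltransferase, was at 40.5 and 33.4 TPM, and Pggt1b, that of geranylgeranyl transferase I, at 10.2 and 13.2 TPM. Fnta exceeded Fntb 1.96-fold and 2.31-fold and Pggt1b 7.78-fold and 5.82-fold. The beta subunits moved in opposite directions between the libraries, Fntb down and Pggt1b up in replicate 2, each with intervals that did not overlap. After prenylation, RCE1 cleaves the protein end and ICMT methylates it. Rce1 was at 3.74 and 2.15 TPM and Icmt at 2.41 and 2.04 TPM, below Fnta, Fntb and Pggt1b in both libraries.

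**Figure D2:**
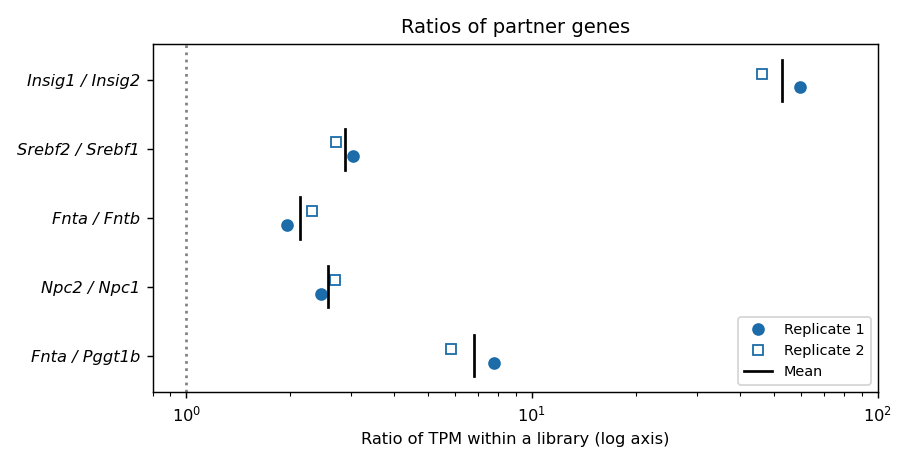
Ratio of TPM (log axis) within replicate 1 (filled circles) and replicate 2 (open squares) for 5 pairs of paralogs, partner proteins or subunits, with the mean as a bar and the dotted line at a ratio of 1. The Insig1 to Insig2 ratio (59.8 and 46.2) lies far above the others, which lie between 1.96 and 7.78.

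Several of these values depend on how gene length and shared sequence were treated. The deposited TPM were set on the summed exon length of each gene, which exceeded the longest coding transcript by a median factor of 1.33, from 1.01 for Abca1 to 3.04 for Fdps. Per base of the longest coding transcript, Insig1 remained highest at a mean of 371, but Fdps was at 183, above Hmgcs1 at 124 and Fnta at 122. Insig1 then exceeded the next gene 2.03-fold, compared with 3.46-fold over Hmgcs1 in the deposited TPM. Msmo1 was at 60.2, Sqle at 57.3 and Mvk at 1.59 on the same basis.

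Overlap with other genes touched Acat2, Fdps, Idi1 and Fdft1 most. Of the 75-base words in Acat2 transcripts, 33.9% also occur in its paralog Acat3 (chromosome 17, 12923813 to 12940600), which was at 489 and 541 TPM. Acat3 exceeded Acat2 6.13-fold and 11.4-fold, and the Acat2 values are uncertain for that reason. Fdps shares 1124 exonic bases on the same strand with the annotated gene Gm43738, which was at 82.3 and 107 TPM. The reads of the pair were nearly equal, 2080 for Fdps and 2061 for Gm43738 in replicate 1 and 956 and 947 in replicate 2. Tm7sf2 shares 532 exonic bases on the same strand with Vps51. Reads of these genes were also close, 165 for Tm7sf2 and 151 for Vps51 in replicate 1 and 80 for each in replicate 2. Idi1 shared 23.6% of its words with other genes, mainly the processed pseudogene Gm13502 (3.54 and 2.19 TPM), and Fdft1 21.8%, mainly Ctsb on the opposite strand (7.30 and 5.34 TPM). Whether the counting used strand, and how reads of several genes were assigned, was not given in the sources used here.

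The libraries differed little over these genes on the log2(TPM + 1) scale, which understates differences of low genes. On that scale 0 of 35 members differed over 2-fold, where 10.2% of all genes did and 11.1% of the 12736 genes within the members' range of mean TPM. The nearest to the limit were Mylip, higher in replicate 2 by 0.964, and Hsd17b7, higher by 0.886. With a pseudocount of 0.1 in place of 1, 3 members passed the limit (Mylip at 1.63, Hsd17b7 at 1.24 and Mvk at -1.20), as did 17% of genes in that range. Of the 35 genes, 12 were higher and 23 lower in replicate 2, and the median absolute difference was 0.272, compared with 0.287 for genes in that range. All 35 lay within the central 95% of differences of genes at a like level, and 21 lay between the quartiles.

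By counting error alone, more members differed. The exact Poisson 95% intervals of 14 of 35 members did not overlap between the libraries, nor did those of 29.1% of genes in that range. Of these, 6 were higher in replicate 2 (Mvd, Fdps, Nsdhl, Hsd17b7, Mylip and Pggt1b) and 8 were lower (Acat2, Fdft1, Msmo1, Sc5d, Dhcr7, Insig1, Abca1 and Fntb). Both groups held enzymes of the mevalonate route and of sterol synthesis, so neither direction was that of the whole route. The only mevalonate enzyme among the lower genes was Acat2, whose values are uncertain because of sequence shared with Acat3. Other markers also differed in level between the libraries, many within counting error. Intervals were apart for 1 of 5 macrophage markers (Csf1r), 2 of 5 visceral endoderm markers (Afp and Rbp4) and 2 of 5 endothelial markers (Kdr and Emcn). The 5 macrophage markers were all lower in replicate 2 (sum 23.9 and 12.1 TPM, with C1qb at 1.16 TPM and 0), and 4 of 5 visceral endoderm markers were higher (sum 4.48 and 11.5 TPM, with Afp at 0.843 TPM and 0). The 5 endothelial markers summed to 12.9 and 11.0 TPM. Of these, Pecam1 was higher in replicate 2 (8.23 and 9.99 TPM). The other 4 were lower (sum 4.71 and 1.01 TPM, with Emcn at 2.12 TPM and 0), and Cldn5 rested on 6 and 1 reads. Summed levels were 2.37 and 3.95 TPM for 5 mesenchyme markers with Lum at 0 in both libraries, 3.91 and 3.99 TPM for 5 markers of coelomic and gonadal epithelium and 6.41 and 7.05 TPM for 3 neural markers. The 4 gut endoderm markers summed to 161 and 140 TPM, of which Epcam, which PGCs also express, held 160.0 and 138 TPM while Foxa1 was at 0 in both libraries. The part of these cells in the members' differences was not tested.

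**Figure D3:**
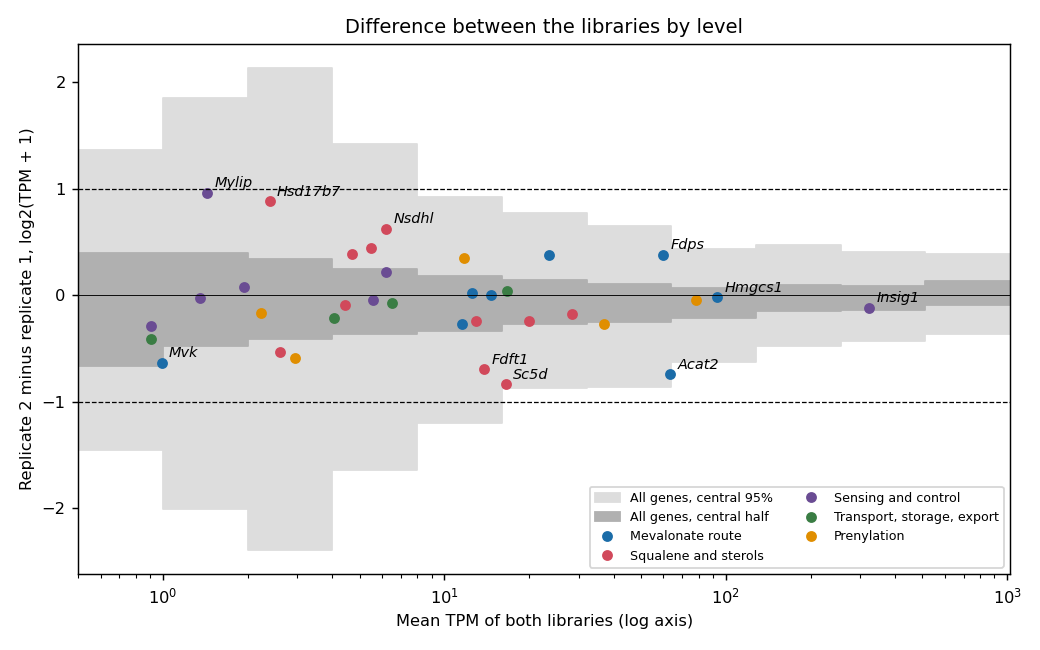
Difference between the libraries (replicate 2 minus replicate 1, log2(TPM + 1)) against mean TPM (log axis) for the 35 genes, coloured by role. Grey bands hold the central 95% and the middle between the quartiles of all genes in bins of level. Dashed lines mark 2-fold on this scale, which understates differences of low genes. As plain TPM ratios of replicate 2 to replicate 1, Mylip (3.41), Hsd17b7 (2.46) and Mvk (0.395) were past 2-fold. All 35 genes lie within the light band and between the dashed lines, with Mylip (0.964) and Hsd17b7 (0.886) closest to the upper line and Sc5d (-0.835) closest to the lower.

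Other enzymes of the same routes were read beside the members. The table held 11 of 13 listed genes, and their median was 11.2 TPM in replicate 1 and 10.8 TPM in replicate 2. Of these, 10 were at 1 TPM or more in both libraries. Lbr, whose product can carry out the same sterol reduction as TM7SF2 besides its role in the nuclear envelope, was the highest at 62.5 and 47.7 TPM. The branch to ubiquinone and dolichol was present too, with Pdss1 at 23.2 and 15.0 TPM, Coq2 at 19.8 and 19.9 TPM and Nus1 at 11.2 and 10.9 TPM. Pdss2, the partner subunit of Pdss1, was lower at 1.55 and 2.16 TPM.

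The machinery that processes SREBPs lay within a narrower range. The table held 8 of 9 listed genes, all at 1 TPM or more in both libraries, with a median of 5.90 and 5.68 TPM. The lowest was the ubiquitin ligase gene Syvn1 at 2.93 and 2.57 TPM. The proteases that release SREBPs in the Golgi, Mbtps1 and Mbtps2, were at 9.74 and 10.6 TPM and at 4.64 and 4.38 TPM. None of these genes came near the level of Insig1.

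Genes of sterol uptake and further transport were the lowest list. The table held 14 of 17 listed genes, their median was 0.557 and 0.550 TPM, and 5 were at 1 TPM or more in both libraries while 8 were in neither. Apoe was highest at 31.5 and 42.8 TPM, followed by the exporter Abcg1 at 13.3 and 13.7 TPM and the sterol carrier Stard4 at 9.34 and 7.66 TPM. The second sterol acyltransferase gene, Soat2, had 4 reads and 0, against 412 and 120 for Soat1.

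Subunits were unequal among further prenylation genes as well. All 5 listed genes were at 1 TPM or more in both libraries, with a median of 2.60 and 3.02 TPM. Rabggtb, the beta subunit of the transferase that modifies Rab GTPases, was at 66.7 and 49.3 TPM and its alpha subunit Rabggta at 2.60 and 3.02 TPM, a ratio of 25.7 and 16.3. Zmpste24, a protease of prenylated lamin, was lowest by mean at 2.16 and 2.22 TPM. Of genes for prenylated proteins, 18 of 22 had a row, and their median was 26.5 and 24.5 TPM. The highest was the G protein gamma gene Gng5 at 337 and 355 TPM, followed by Rap1b at 226 and 187 TPM and Cdc42 at 219 and 178 TPM. Gng2 was lowest by mean at 1.61 and 1.70 TPM. Over 2-fold lower in replicate 2 were Gng3, at 19.2 and 5.28 TPM, and Gngt2, at 2.69 and 0.797 TPM.

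Genes of fatty acid synthesis, the branch driven mainly by SREBP-1, were all in the table, and 7 of 10 were at 1 TPM or more in both libraries, with a median of 4.83 and 4.45 TPM. Scd2, a stearoyl-CoA desaturase, was highest at 18.1 and 21.7 TPM and the elongase Elovl6 next at 14.7 and 12.1 TPM. Fatty acid synthase, Fasn, was at 4.71 and 4.92 TPM and acetyl-CoA carboxylase, Acaca, at 1.004 and 1.05 TPM. Acly, which supplies cytosolic acetyl-CoA to both routes, was at 7.49 and 11.1 TPM. The alternative source of acetyl-CoA, Acss2, was the lowest by mean, with 33 reads in replicate 1 and 0 in replicate 2.

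**Figure D4:**
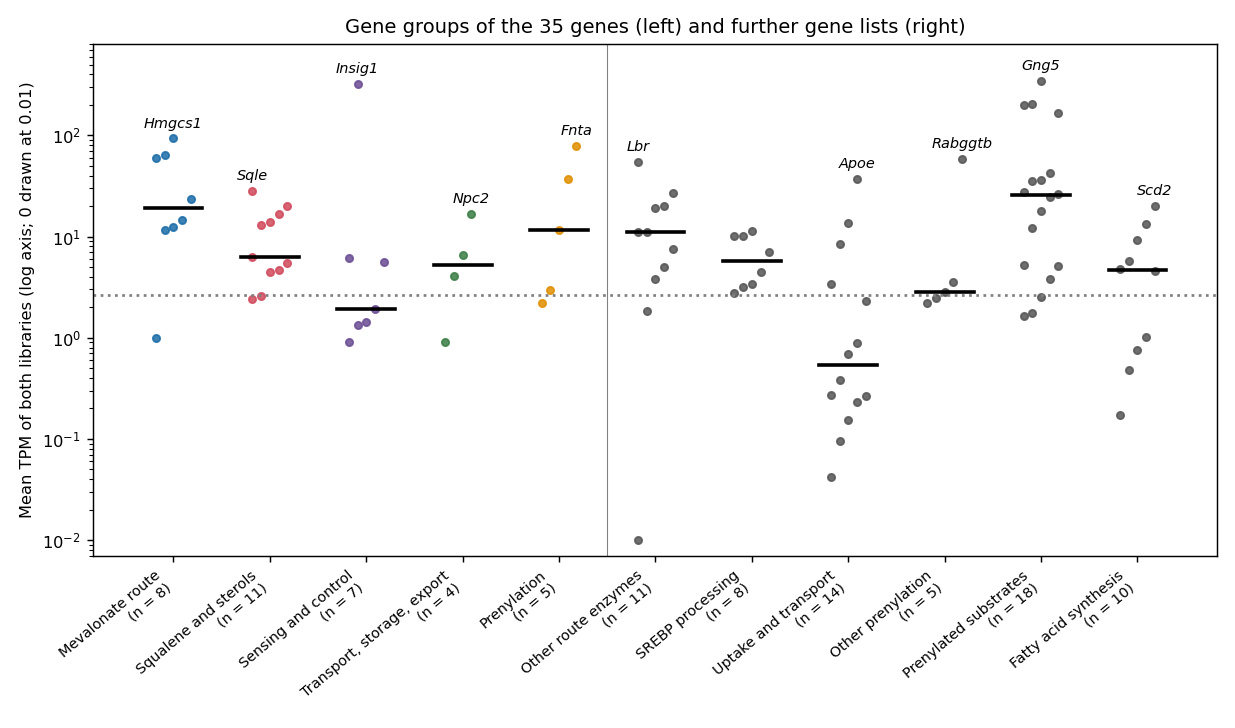
Mean TPM of both libraries (log axis, 0 drawn at 0.01) of each gene in the 5 groups of the 35 genes (left of the line) and in 6 further lists (right). Bars are medians, the highest gene is named in all but the SREBP processing list, and the dotted line is the median of all genes. Medians run from genes of uptake and transport, below the dotted line, to prenylated substrates and the mevalonate route, the highest.

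Promoters were searched for the 4 motifs over 300 bases, 250 before and 50 after the start. RefSeq entries were found for 29 of 35 genes, with 38 promoters, and those of Fdps, Fdft1, Sqle, Npc1, Fnta and Pggt1b were not found. The sterol element was in 1 of 38 promoters (2.63%), that of Hmgcs1, compared with 1.24% of all 32851 promoters and 1.05% of the 9216 promoters of genes at 1 TPM or more in both libraries. NF-Y boxes were in 24 members' promoters (63.2%), compared with 37.4% and 39.7%. Sp1 boxes were in 31 (81.6%), compared with 35.7% and 62.3%, and the E-box in 8 (21.1%), compared with 7.15% and 10.5%. The E-box promoters belonged to Abca1, Dhcr7, Hsd17b7, Insig1, Rce1, Sc5d and Scap, genes that ranged from 0.906 to 323 TPM in mean level. A match describes letters only, and binding was not measured here. Only these exact patterns were searched, so a site that departs from them would be missed.

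**Figure D5:**
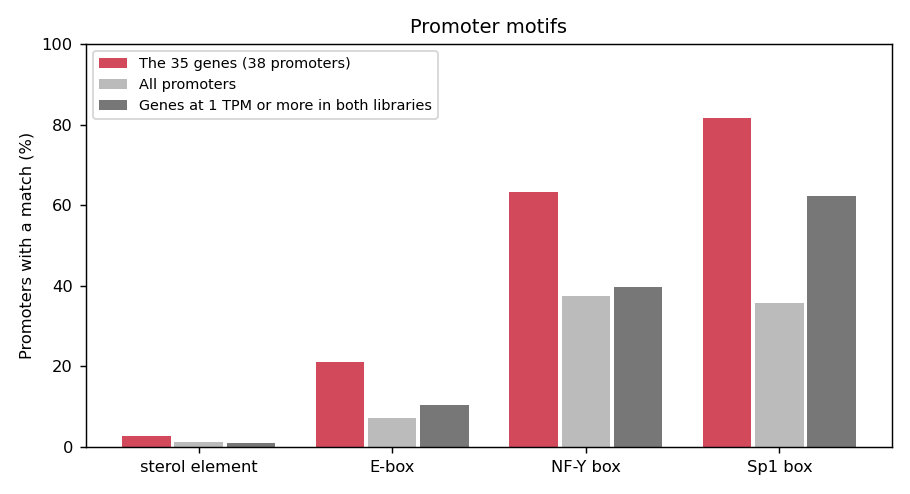
Share of promoters (%) with a match to each motif on either strand, for the 38 promoters of the 29 members with an entry (red), all promoters (light grey) and promoters of genes at 1 TPM or more in both libraries (dark grey). The members' share is the highest of the 3 for each motif, and for the sterol element it rests on 1 promoter.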

How the data were processed

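PGCs of E9.5 C57BL6 mouse embryos were profiled by RNA-seq in 2 libraries of 1 group. The authors aligned reads to mm10 with Hisat2, counted them per gene with featureCounts and deposited TPM per gene. The submitters' processing notes also name Bowtie2, RSEM, DESeq2 and R 3.4.2, with no role given. The methods describe Smart-seq2 cDNA and the labels another library kit, so the chemistry is uncertain. The annotation, strand handling and treatment of reads of several genes are not given in the sources used here. The titles number the libraries as replicates, and the paper describes its RNA-seq as 2 biological replicates. Neither says whether they came from separate embryos or pools, so each SD measures the spread between these libraries only. How much of that spread is technical was not tested.

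Symbols were matched to GENCODE M21 (GRCm38, the assembly of mm10), with 1 gene for 18748 rows and none for 129. TPM multiplied by summed exon length came out as whole multiples of 1 amount per library, taken as 1 read: of values under 50 reads, 96.7% and 95.8% lay within 0.02 of a whole number, where 4% would by chance. A read given to several genes is included for each. Reads gave exact Poisson 95% intervals and a floor of 3 reads for a zero, which cover counting error only. Because TPM keeps no depth of its own and there was 1 group, no count model or test was run.

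Analysis was on log2(TPM + 1), which understates differences of low genes. Shared sequence is the share of 75-base words of a gene's GENCODE transcripts found in another gene. The members and lists were chosen with earlier results of these data known. Every member is named with both values, and the rule named at least the highest and the lowest gene of each further list, although some of these genes are not reported here. Alternatives were a pseudocount of 0.1 or none, low-value filters, other detection thresholds, other scalings and leaving out each replicate. Those on protein-coding rows, shared sequence, transcript length and Poisson intervals were chosen after seeing the data. Read recovery was tested on simulated data built with the same exon lengths. Such a test checks the code and cannot show errors in those lengths or in the assignment of reads. Tools were Python 3.11.15, numpy 2.4.6, pandas 2.3.3, scipy 1.17.1 and matplotlib 3.10.9.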

Additional observations from a re-analysis of the deposited data

How the results depend on the processing

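For 20 results, 71 alternative values were computed. Of these, 50 moved by less than the spread between libraries (for counts, by less than 1.5 times) and 21 by more. With 2 libraries, leaving out either replicate moves a mean by less than the SD by arithmetic. For medians and ratios such alternatives were thus among the 50 in advance and do not show stability. Reversal was scored only for the log2 ratios of partner genes and the excess over all genes, and none of these reversed. The order of some other genes reversed per base of the longest coding transcript, as given above. The members' median of 3.04 became 2.87 with a pseudocount of 0.1, 3.63 after rescaling without mitochondrial, small RNA and predicted genes, and 2.82 without the 4 members that share over 20% of their sequence. Its excess over all genes, 1.17, became 0.651 over genes with a mean of 1 TPM or more, 1.41 with a pseudocount of 0.1 and 0.786 over protein-coding genes. Members at or above the detection threshold in both libraries numbered 31 at 1 TPM and 20 at 5 TPM. Members over 2-fold apart numbered 0, but 3 with a pseudocount of 0.1 and 1 (Mylip) after shifting replicate 2 to a median difference of 0. Poisson intervals, which set no fold limit, did not overlap for 14 members. The log2 ratio of Srebf2 to Srebf1, 1.16, became 1.52 without a pseudocount and 1.32 per longest coding transcript, and that of Npc2 to Npc1, 1.24, became 1.36 and 0.919. With a pseudocount of 0.1 the group medians became 1.10 for sensing and control, 2.38 for transport, storage and export, 3.47 for other enzymes of the routes, 2.52 for SREBP processing, -0.630 for uptake and transport, 1.54 for other prenylation and 2.24 for fatty acid synthesis. The cause of these shifts was not tested beyond the alternatives' own construction. With 2 libraries in 1 group no difference between conditions can be read, and members with few reads have wide counting intervals. No paired analysis was possible because the result comes from no test and there is 1 group.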
